A study of Mus musculus with 3 samples.

Results

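The genes described here are the RNA helicases of the DEAD and DEAH box families, measured in mouse embryos at the four-cell stage. They were taken by name, as all non-control probes whose gene name in the array files begins with Ddx or Dhx followed by a digit. The rule took 88 of 41174 probes, which stand for 50 of 27666 genes on the array, 35 Ddx and 15 Dhx. Names are those of the array files. Ddx39 is now called Ddx39a and Ddx48 is now called Eif4a3, and 2 relatives under other names in the files (now Ddx39b and Dhx58) fall outside the rule.

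The embryos developed from oocytes put under high hydrostatic pressure (HP; 20 MPa, 60 min, 37 °C) or from controls held without pressure. The sample labels give injection of a single sperm (ICSI) as the fertilization, while the title of the series gives fertilization in vitro. For replicates 1, 2 and 3, the HP pool held 44, 30 and 37 embryos. The matching control pool held 36, 33 and 24. The HP and the control pool of a replicate were hybridized together on 1 two-colour Agilent array, and the 3 arrays lay on 1 slide. HP was labelled with Cy5 and control with Cy3 on every array, so pressure and dye cannot be told apart in any value below. Each channel was made from 240 pg of total RNA after repeated amplification. A value is the average of a pool, in which fewer cells or less RNA per cell cannot be distinguished.

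DEAD and DEAH box proteins use ATP to open RNA duplexes or to strip proteins from RNA, and are named after a short motif of their ATP-binding core. DEAD box enzymes mostly part short duplexes locally, whereas many DEAH box enzymes move along a strand, often with the help of G-patch cofactors. Together they serve splicing, ribosome assembly, mRNA export, translation and decay. In the early mouse embryo these steps act on stored maternal transcripts as well as on those of the newly activated genome.

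The DEIH variant of this core motif was itself carried by 1 helicase probe. In the 60-base probe of Dhx36 at chr3:62638708-62638767 (mm7, minus strand, coordinates of the array design), the capitals mark the codons of Asp, Glu, Ile and His. It is shown because it gave another sign than the other measured Dhx36 probe. The codons of DEIH, in a frame with no stop codon, occurred in 3 of the 41174 probes (0.00729%). Counted the same way, those of DEAD, DEAH and DEVH occurred in none of the 88 helicase probes. The pair of Dhx15 probes, at chr5:51524062-51525153 and chr5:51524082-51525173 (mm7, minus strand), shares 40 bases, shown in capitals. Both spans are longer than the 60 bases of a probe, so that the design places each across an intron. They are shown because they are a nearly repeated measurement of 1 transcript.
Dhx36 DEIH probe: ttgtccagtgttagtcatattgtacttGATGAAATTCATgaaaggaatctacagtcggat
Dhx15 probe, first: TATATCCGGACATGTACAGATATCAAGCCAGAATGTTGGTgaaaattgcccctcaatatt
Dhx15 probe, second: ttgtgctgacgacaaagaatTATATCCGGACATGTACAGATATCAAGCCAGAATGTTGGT

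Most helicase genes were measurable in these small pools. Testing required a probe to be called well above background by Feature Extraction, the scanner software, on 2 or more of the 3 arrays in 1 channel. The brightest tested probe stands for its gene. By this filter 29 of 50 helicase genes (58%) were tested, against 7255 of 27666 genes (26.2%) on the array. The share was 18 of 35 for Ddx (51.4%) and 11 of 15 for Dhx (73.3%). In both channels of all arrays, 13 Ddx and 10 Dhx genes were well above background. No spot was saturated.

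The other 21 genes have no ratio here, and 15 of them were not well above background on any array in either channel. These 15 include Ddx6, a repressor and storage factor of maternal mRNA, which has 1 probe. They also include Ddx58, the cytoplasmic sensor of foreign RNA also called RIG-I, with 4 probes, and Ddx3y, the Y-linked copy of Ddx3x. The splicing enzymes Dhx8 and Dhx38 were likewise not well above background on any array. Ddx19a, Ddx23, Ddx25, Ddx27, Ddx28 and Ddx50 were above it on 1 array in at least 1 channel. Of 22 further probes for the tested genes, 16 were not tested, and 13 of these 16 lie upstream of the probe that stands for the gene. The further probes that were tested also lay mostly upstream, 5 upstream and 1 downstream. The part of probe position in this pattern was not tested.

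The markers of the labelled material were partly present. Of 10 genes of oocytes and cleavage embryos, Dppa3, Zp3, Gdf9 and Oosp1 were well above background in all 6 pools, while Nlrp5, Zar1 and Ooep were above it in none, and Pou5f1 only in 1 control pool. The summed signal of the 10 was 9298, 14152 and 11907 in the HP pools and 8099, 9781 and 8843 in the control pools, higher in HP on every array. Of 10 cumulus cell genes 8 were above background in no pool and only Amhr2 in all, and of 6 sperm genes none was above background in all pools. The cumulus sums were 2068, 2098 and 2010 in HP and 2055, 1959 and 1906 in control, also higher in HP on every array, and the sperm sums ran from 717 to 740. Beside Amhr2 only Ptx3, Prm1 and Prm2 were above background in any pool. As log2 ratios of HP over control, the tested embryo markers ran from 0.02 for Zp3 to 1.29 for Oosp1. Amhr2, the only cumulus gene tested, was at 0.14. The part of the higher embryo and cumulus sums in the helicase results was not tested.

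Replicates 2 and 3 resembled each other more than either resembled replicate 1. Over the 29 tested helicases, the normalized log2 signals of HP pools 2 and 3 differed with an SD of 0.123, and by 0.315 at most. All other pairs of pools had an SD between 0.396 and 0.75. Over all tested genes the SD between HP pools 2 and 3 was 0.229. The labels name them as separate samples, so both are kept. Values with the pair as 1 replicate are given for the main counts and the helicases with an unadjusted limma p under 0.05. P-values cover no more than the variation among 3 pairs of pools, and the number of arrays limits the precision.

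The comparison asks how helicase transcripts of four-cell embryos differed with pressure on the oocyte. All ratios are log2 of HP over control after loess within each array, as mean ± moderated SE over n = 3 arrays. Dhx33 and Ddx3x stood at 0.91 and 0.93, and Dhx16 at −1.55, the lowest of the family. None of the 29 passed the adjusted threshold of 0.05, and none of the 7255 genes did (0%; limma, Benjamini-Hochberg). At an unadjusted p under 0.05 there were 2 helicases on the higher side (Dhx33, Ddx3x; 7.25% of all genes) and 5 on the lower side (Dhx40, Ddx21, Dhx16, Dhx57, Dhx29; 11.3% of all genes). The 7 together compare with 18.5% of all genes. With replicates 2 and 3 as 1, the counts were 1 higher (Dhx33) and 2 lower (Dhx40, Ddx21). By that limma fit, 865 of 7255 genes had an unadjusted p under 0.05.

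On every array, 2 helicases were above 0 and 7 below 0, and 20 changed sign. The share of all genes was 23.2% above and 25% below, so the 7 of 29 are close to the background and the 2 of 29 fall under it. Counting replicates 2 and 3 as 1 gave 3 above and 8 below, against 30.5% and 33.3% of all genes. The 7 were the 5 just named with Ddx46 and Ddx48, of which Ddx48 passed the filter only through the control channel. No helicase was at least 2-fold higher or lower on every array, against 0.152% and 0.221% of all genes. Mean ratios were below 0 in 19 of 29 helicases, against 51.7% of all genes. The median over the 29 was −0.06, against −0.01 over all genes.

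**Figure D1:**
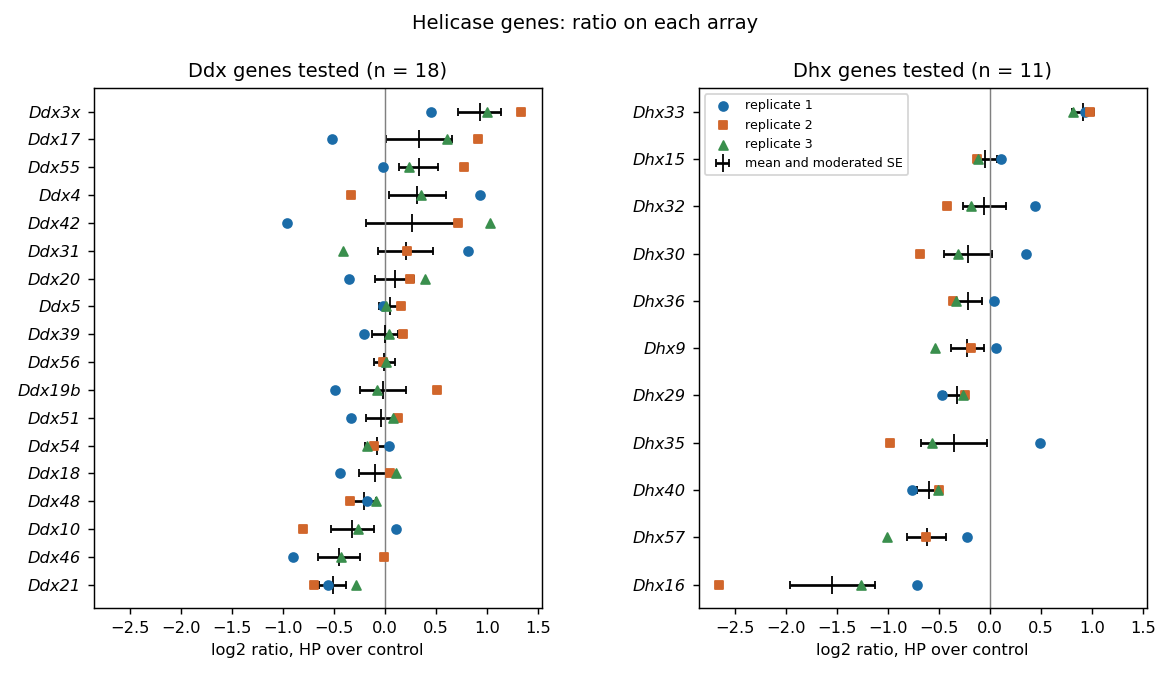
Log2 ratio of HP over control (horizontal axis) for each of the 29 tested helicase genes, Ddx on the left and Dhx on the right. Coloured symbols are the 3 arrays, and the black tick and bar are the mean and moderated SE. Dhx33 is the gene whose arrays lie close together well above 0, while Dhx16 ranges from −0.71 to −2.66.

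The family was compared by subfamily, Ddx against Dhx. The median log2 ratio of the 18 Ddx genes was −0.20, 0.14 and 0.02 on replicates 1, 2 and 3. That of the 11 Dhx genes was 0.06, −0.42 and −0.33. Dhx minus Ddx was thus 0.25, −0.56 and −0.36 (mean −0.22, SD 0.42, n = 3 arrays). Replicate 1 had the opposite order to the other arrays, and the mean difference was smaller than its spread between arrays.

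The mean ratio was below 0 in 9 of 18 Ddx genes and in 10 of 11 Dhx genes, against 51.7% of all genes. The Dhx gene not below 0 was Dhx33. The medians of the mean ratios were 0.00 and −0.22, a difference of −0.22 that was −0.44 without replicate 1, −0.11 without replicate 2, −0.14 without replicate 3, and −0.10 with replicates 2 and 3 as 1. By count, 1 Ddx and 1 Dhx gene were above 0 on every array, 3 and 4 were below, and 14 and 6 were mixed. Above 0 this is 5.6% and 9.1%, against 23.2% of all genes. Below 0 it is 16.7% and 36.4%, against 25% of all genes. Members are not replicates, so no p is given for the difference. The probes of the tested Ddx and Dhx genes held a median of 24.5 and 23 G and C bases of 60.

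**Figure D2:**
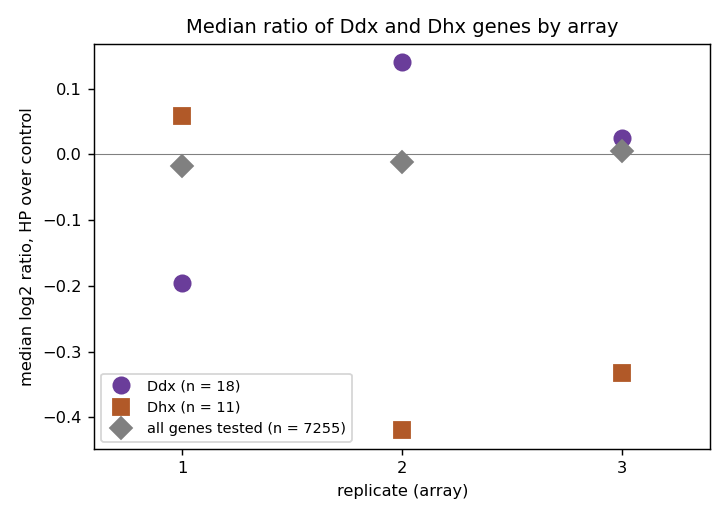
Median log2 ratio of HP over control (vertical axis) on each array (horizontal axis) over 18 Ddx genes, 11 Dhx genes and all 7255 tested genes. The Dhx median is above the Ddx median on replicate 1 and below it on replicates 2 and 3, where it is −0.42 and −0.33.

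In both channels read separately, the 3 HP pools lay above the 3 control pools for Dhx33 and Ddx3x, and below them for Ddx21, Dhx16, Dhx29 and Dhx40. All genes had 13.3% with HP above and 13.2% with HP below. Pools overlapped for 16 Ddx and 7 Dhx genes. The 2 of 29 are below that background and the 4 of 29 close to it.

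Among the spliceosomal helicases, Dhx16 had the widest ratio and Dhx15 was near level with loess. There were 8 tested genes with this role, none above 0 on every array and 2 below (Dhx16, Ddx46), and their median was −0.02. The 2 of 8 equal the 25% of all genes below 0 on every array, and 23.2% of all genes were above. Dhx16, which drives the remodelling that makes the spliceosome catalytically active, had normalized log2 signals of 8.64, 7.28 and 7.60 in the HP pools and 9.35, 9.94 and 8.87 in the control pools. Every HP pool was below every control pool, and the gap was wide on replicate 2 and narrow on replicate 1. The ratios of −0.71, −2.66 and −1.27 gave −1.55 ± 0.42, or 2.92-fold lower in HP (limma adjusted p = 0.211).

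The Dhx16 value depends on replicate 2, without which it was −0.99. It rests on 1 probe, at chr17:33996706-33996765 (mm7, plus strand), since its other probe was well above background on 1 array in each channel. Counting replicates 2 and 3 as 1 gave −1.34, with an unadjusted p above 0.05.

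Ddx46, needed for the stable binding of the U2 particle to the branch site, was at −0.45 ± 0.21. Its ratios were −0.90, −0.02 and −0.43, so that replicate 2 was level, and the mean without replicate 1 was −0.22. A dimmer probe of Ddx46 gave 0.07, and the gap of 0.52 between its probes is larger than the ratio itself.

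Dhx15, which takes apart the spliceosome after splicing, had signals of 9.30, 9.13 and 9.11 in HP and 9.18, 9.26 and 9.24 in control. The pools overlapped, and the ratio was −0.05 ± 0.12. The second of the overlapping Dhx15 probes printed above also gave −0.05.

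Ddx5, a helicase of splicing and of microRNA processing, had signals of 11.75, 11.83 and 11.77 in HP and 11.76, 11.68 and 11.77 in control. These pools overlapped, and the ratio was 0.05 ± 0.11, while a dimmer probe of the same gene gave −0.44. Ddx39, an mRNA export and splicing helicase, had a ratio of 0.00 ± 0.13. Its signals were dim, at 6.51, 6.70 and 6.54 in HP and 6.72, 6.53 and 6.50 in control. Ddx39 was well above background in every pool, but a Ddx21 probe that never was had means of 6.46 and 6.40. Ddx5 and Ddx39 changed sign under other settings.

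Ddx17, the close paralogue of Ddx5, and Ddx42, a helicase associated with the U2 particle, were chosen after their values were seen, for the disagreement of their arrays. Ddx42 had signals of 7.83, 9.48 and 9.34 in HP and 8.79, 8.76 and 8.32 in control. HP pool 1 was the lowest of the 6 and HP pools 2 and 3 the highest, with ratios of −0.96, 0.72 and 1.03 and a mean of 0.26 ± 0.45. The mean was 0.87 without replicate 1, 0.03 without replicate 2 and −0.12 without replicate 3. Ddx17 was at −0.52, 0.91 and 0.60 on the 3 arrays. Dhx35, found in the catalytic spliceosome, ran the other way at 0.49, −0.98 and −0.57, and was also chosen after its values were seen.

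**Figure D3:**
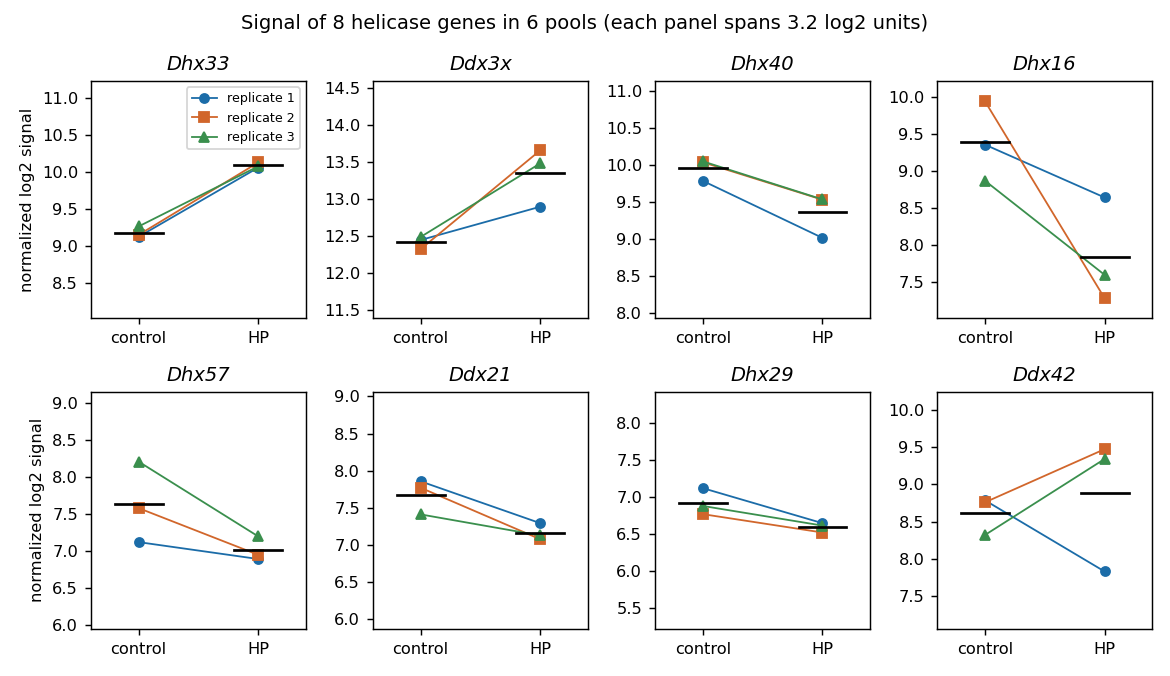
Normalized log2 signal (vertical axis, with the same span in every panel) of 8 helicase genes in the control and HP pools. Lines join pools of the same array and black bars are means of n = 3. The HP pools lie above the control pools for Dhx33 and Ddx3x and below them for Dhx40, Dhx16, Ddx21 and Dhx29; they overlap for Dhx57 and Ddx42.

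Among the helicases of the nucleolus, Dhx33 was on the higher side and Ddx21 on the lower. There were 9 tested genes with this role, 1 above 0 and 1 below 0 on every array, and their median was −0.05. Both counts are under the shares of all genes, 23.2% above and 25% below. Dhx33, which takes part in ribosomal RNA transcription and in translation initiation, had signals of 10.06, 10.13 and 10.08 in the HP pools and 9.13, 9.15 and 9.27 in the control pools. The groups did not overlap and varied little within themselves. The ratios of 0.93, 0.98 and 0.81 gave 0.91 ± 0.11, or 1.88-fold higher in HP (limma adjusted p = 0.174, rank 28 of 7255 by p).

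The Dhx33 probe lies at chr11:71065852-71065911 (mm7, minus strand). Both of its other probes lie upstream, and neither was tested, being well above background on at most 1 array. Counted over the pair of replicates 2 and 3 as 1, Dhx33 was at 0.91 with an adjusted limma p of 0.414.

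Ddx21, which couples ribosomal RNA transcription to processing, had signals of 7.29, 7.07 and 7.12 in HP and 7.86, 7.77 and 7.41 in control. All HP pools were below all control pools. The ratio was −0.51 ± 0.13, or 1.43-fold lower (limma adjusted p = 0.199), and the scanner software's own log ratios gave −0.93. Counting replicates 2 and 3 as 1 gave −0.53 (limma adjusted p = 0.414). The value rests on 1 probe, since the other Ddx21 probes were well above background on at most 1 array in each channel.

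The remaining 7 nucleolar helicases, Ddx10, Ddx18, Ddx31, Ddx51, Ddx54, Ddx55 and Ddx56, had ratios of both signs over the arrays. Their means ran from −0.32 for Ddx10 to 0.33 for Ddx55. Ddx55 passed the filter only through HP, being well above background on 2 HP arrays and 1 control array, and the scanner software's log ratios gave 1.78 for it. Ddx56 differed least between arrays, with −0.02, −0.02 and 0.01, but was well above background on only 2 arrays in each channel. Its means were 6.45 in HP and 6.46 in control. A Ddx21 probe never well above background had 6.46 and 6.40. Ddx31 differed most, with 0.81, 0.21 and −0.42.

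Of the 5 tested helicases of mRNA export, translation and decay, Ddx3x was above 0 and Dhx29 below 0 on every array. Their median was −0.22. Both counts are near the shares of all genes, 23.2% above and 25% below. Ddx3x, an X-linked helicase that helps ribosomes start on structured leaders, had signals of 12.90, 13.66 and 13.48 in HP and 12.45, 12.32 and 12.49 in control. The groups did not overlap, and HP pool 1 was the closest to the controls. The ratios of 0.45, 1.33 and 0.99 gave 0.93 ± 0.21, or 1.9-fold higher (limma adjusted p = 0.189).

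The Ddx3x value comes from the probe at chrX:11727136-11727195 (mm7, plus strand). A second tested probe 2144 bases upstream gave only 0.11, with overlapping pools at 9.09, 9.44 and 9.30 in HP and 9.05, 9.34 and 9.10 in control. The gap of 0.82 was the widest between probes of 1 helicase. With replicates 2 and 3 as 1, the brighter probe was at 0.81, with an unadjusted p above 0.05.

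Dhx29, which acts on the small ribosomal subunit during scanning, had signals of 6.65, 6.52 and 6.62 in HP and 7.12, 6.77 and 6.88 in control. All HP pools were below all control pools, and HP was well above background on 2 of 3 arrays. The ratio was −0.33 ± 0.11 (limma adjusted p = 0.264). It rests on 1 probe, since the other Dhx29 probe was well above background only on 1 array in control. An offset of 0 in the background correction in place of 50 gave −0.67, no background subtraction gave −0.54, and the scanner software's log ratios gave −1.42. With replicates 2 and 3 as 1, Dhx29 was at −0.36, with an unadjusted p above 0.05.

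Dhx36, which unwinds G-quadruplexes, gave opposite signs by probe. The probe that stands for the gene had signals of 7.44, 7.29 and 7.36 in HP and 7.41, 7.65 and 7.69 in control, with a ratio of −0.22 ± 0.14. The DEIH probe printed above, 23430 bases upstream, had 6.91, 7.24 and 6.95 in HP and 6.63, 6.50 and 6.60 in control. There the HP pools lay above the control pools, and the ratio was 0.46. Both probes were well above background in both channels of all arrays.

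Dhx9, known as RNA helicase A, had signals of 12.15, 11.72 and 11.85 in HP and 12.09, 11.90 and 12.39 in control, with a ratio of −0.22 ± 0.16. It was −0.36 without replicate 1 and −0.07 without replicate 3. Ddx19b, which releases mRNA at the nuclear pore, was at −0.02, with overlapping pools.

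Several probes of 1 gene were tested for 6 helicases, and 4 of the 6 (Dhx36, Ddx46, Ddx5, Ddx19b) had a probe of the opposite sign. The median gap between the probes was 0.51. Of the 29 probes that stand for a gene, 9 held a stop codon in each forward frame and so do not lie wholly in coding sequence, among them those of Dhx33, Ddx21, Dhx40 and Dhx29.

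The germline helicase Ddx4, the mouse Vasa, was measured in all pools with no common direction. Its signals were 8.99, 7.81 and 7.86 in HP and 8.06, 8.14 and 7.51 in control. HP pool 1 was the highest of the 6, the others overlapped, and the ratio was 0.32 ± 0.28. It was 0.01 without replicate 1 and 0.64 without replicate 2. Dhx30, which serves the mitochondrial ribosome, was at 0.35, −0.69 and −0.32.

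Ddx20, the helicase of the SMN complex that assembles spliceosomal particles, was at −0.36, 0.24 and 0.39, with a mean of 0.09 ± 0.19. Other members of that complex did not share 1 direction. Gemin8 was at 1.28 ± 0.12, Gemin5 at −0.81 ± 0.18, Gemin2 at −0.44 ± 0.11 and Gemin7 at 0.15 ± 0.14, and the adjusted limma p of these 4 was between 0.174 and 0.566. Gemin2 and Gemin7 were chosen after their values were seen. With median centring Gemin7 was at −0.25, and the sign of the others held.

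Of the 4 tested helicases held by none of the role lists, Dhx40, Dhx57 and Ddx48 were below 0 on every array, and Dhx32 was not. Among all genes, 25% were below 0 on every array. Dhx40 had signals of 9.01, 9.53 and 9.53 in HP and 9.78, 10.03 and 10.05 in control. Every HP pool was below every control pool, and the ratio was −0.60 ± 0.12, or 1.51-fold lower (limma adjusted p = 0.176). Counting replicates 2 and 3 as 1 gave −0.64 for Dhx40 (limma adjusted p = 0.414). Its probe is the only one for the gene, at chr11:86839780-86839839 (mm7, minus strand).

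Dhx57 had signals of 6.89, 6.95 and 7.20 in HP and 7.12, 7.58 and 8.21 in control. HP pool 3 was above control pool 1, so the groups overlapped, although HP was lower on each array. The ratio was −0.62 ± 0.19 (limma adjusted p = 0.231), −0.97 with an offset of 0, and −1.21 by the scanner software's log ratios. With replicates 2 and 3 as 1 it was at −0.52, with an unadjusted p above 0.05.

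Ddx48, the helicase of the exon junction complex, was well above background on no array in HP and on 2 in control. Its means were 6.28 in HP and 6.49 in control, 1.15-fold higher in control, with an adjusted limma p of 0.383. The HP signals were 6.20, 6.24 and 6.40. They lay above the lowest well-measured HP signal of each array (5.65, 5.42 and 5.58), so these gave no bound on the difference.

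Array by array, the helicase ratios of replicates 2 and 3 ran together and those of replicate 1 did not. Across the 29 genes, Pearson's r was 0.833 between replicates 2 and 3, 0.138 between 1 and 2, and 0.157 between 1 and 3 (Spearman's rho 0.775, −0.03 and 0.04). The same sign was seen in 25, 11 and 11 of 29 genes. Across all genes r was 0.653, 0.232 and 0.223. These are correlations across genes, which are not independent replicates, and the arrays share a slide, the dye orientation and, for replicates 2 and 3, closely similar HP signals.

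**Figure D4:**
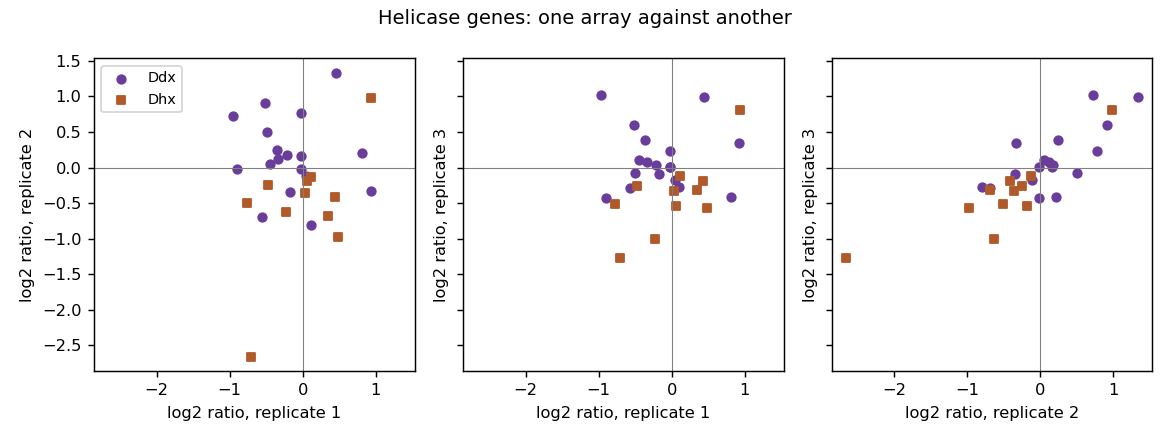
Log2 ratio of HP over control on 1 array against another for the 29 tested helicases, for each pair of replicates. Points follow a line only for replicates 2 and 3 (r = 0.833); for the pairs with replicate 1, r is 0.138 and 0.157.

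The direction of single helicases depended on how the arrays were centred. Loess removes a trend of the ratio with brightness, and median centring sets only the median over all probes to 0. With median centring the median of the 7255 tested genes was −0.39. It put 59% of them below 0 and 3.57% above 0 on every array, beside 25% and 23.2% with loess. Among the helicases, 21 of 29 were then below 0 on every array and none was above. Ddx3x was at −0.26 and Dhx33 at 0.02, which is 0.14 and 0.42 above the median of all genes. Dhx16 was at −2.30, or −1.91 relative to that median. Dhx15, near level with loess, was at −0.88, or −0.49 relative to that median. Under this setting 1047 genes passed the adjusted limma threshold, 1042 of them lower in HP, and the helicases that passed were Ddx21, Ddx46, Ddx5, Dhx40 and Dhx9 (adjusted p = 0.0415 to 0.047). Medians were −0.51 for Ddx and −0.88 for Dhx. Dhx16, Dhx40, Ddx21, Dhx57, Dhx29, Ddx46 and Ddx48 were below 0 with both scalings. Median centring lowered every tested helicase, so a sign below 0 with loess could not turn, and this is no check of these genes.

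**Figure D5:**
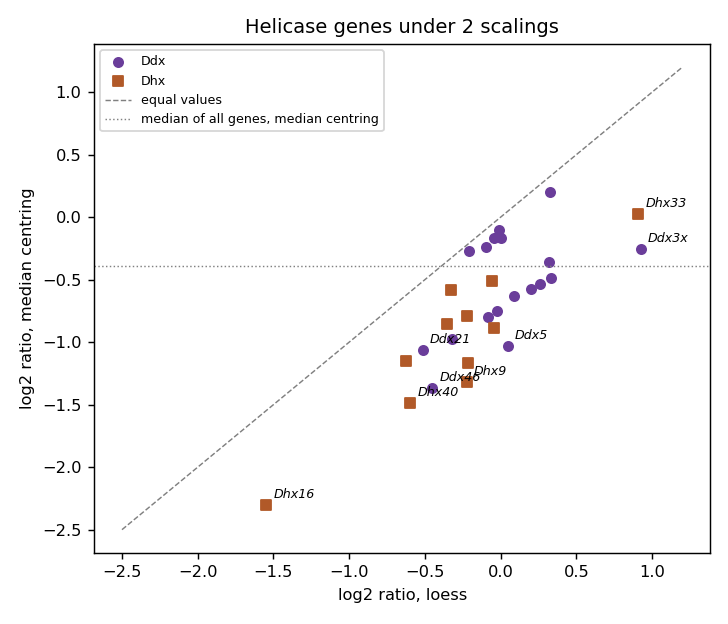
Log2 ratio of each tested helicase with loess (horizontal axis) and with median centring (vertical axis), with the line of equal values dashed and the median of all genes under median centring, −0.39, dotted. Points lie below the dashed line, and Dhx33 and Ddx3x lie above the dotted line at 0.02 and −0.26.

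Helicases outside the name rule and the genes that work with the family were read in the same fit. Of 23 other RNA helicases on the array (a list that includes Ddx48 under its present name), 15 were tested, 3 above and 5 below 0 on every array, with a median of −0.06. All genes had 23.2% above and 25% below. Of the 5, Eif4a2, Ythdc2 and Ddx48 passed the filter only through control. Mtrex, the helicase that feeds RNA to the nuclear exosome, was at −0.41 ± 0.11 and was the only one with an unadjusted limma p under 0.05. Eif4a2, an initiation factor helicase, was at −0.42 ± 0.16, with HP well above background on 1 array. Ythdc2, a helicase of the meiotic germline, was well above background on no array in HP and on 2 in control, so no ratio is given. The initiation factor Eif4a1, chosen after its value was seen, was level at 0.04 ± 0.17 with loess and at −0.71 with median centring.

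Of 39 partners and cofactors, 27 were tested, 7 above and 12 below 0 on every array, with a median of −0.14. The shares over all genes are 23.2% above and 25% below. Of the 12, Gpatch1, Eif4g3, Rbm8a and Zgpat passed the filter only through control. At an unadjusted limma p under 0.05 there were 5 higher and 5 lower (7.25% and 11.3% of all genes), and none passed adjustment. Gpatch1, a G-patch protein of the spliceosome, was at −1.43, −1.37 and −0.94 on the 3 arrays, or −1.25 ± 0.15. It was well above background on 1 array in HP and on 3 in control. Gemin8 and Gemin5, given above with Ddx20, were the other leading genes of this list.

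Of 20 genes of maternal mRNA storage, whose helicase Ddx6 was not measured above background, 15 were tested, 4 above and 4 below 0 on every array, with a median of −0.03. Over all genes the shares were 23.2% above and 25% below. Of the 4 below, Dcp2 passed the filter only through control. Btg4, the adaptor that brings the deadenylase to maternal mRNA, was at 0.87, 0.64 and 0.53, or 0.68 ± 0.12. With median centring it turned to −0.0048. Ybx1, an mRNA packaging protein, was at −0.49 ± 0.13, and Pum2, which binds the 3′ ends of stored mRNA, at −0.41 ± 0.11. At an unadjusted limma p under 0.05 this list had 2 higher and 3 lower genes (7.25% and 11.3% of all genes), and none passed adjustment.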

How the data were processed

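Scanner tables of 3 arrays of mouse embryo pools were analysed. Per the labels, HP pools carried Cy5 and control pools Cy3 on every array. Per the file headers, the software was Agilent Feature Extraction, version 9.5.1.1. Spot and local background signals were deposited as intensity values of the scan. A log ratio was also deposited, the log10 of processed Cy5 over Cy3 after the software's background subtraction and dye normalization, with surrogates for dim values. The authors' series table repeats these log10 values (largest difference 5e-10, column median 0 on each array), so it was not an alternative of its own.

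In R 4.3.3 with limma 3.58.1 and statmod 1.5.0, mean signals were corrected by normexp (offset 50), and normalized by loess (span 0.3, control spots at weight 0). Outlier spots (208, 172 and 325 on replicates 1, 2 and 3) were left out, and spots of a probe averaged. An intercept was fitted to the log2 ratio over 7255 genes with lmFit and eBayes and adjusted by Benjamini-Hochberg. Channel signals were normalized by Aquantile after loess. The limma fit and the adjustment were tested on simulated log2 ratios, and the earlier steps were not. Symbols of other genes follow the RefSeq table of GRCm38.p6. Sequences and mm7 coordinates are those of the array tables.

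The HP and control pools of a replicate share an array, so the ratio pairs them. All 15 alternatives are in the closing section. Named helicases were up to 8 per direction with the smallest p and 1 sign on all arrays, a set list of well-known members, and the 3 with the widest gap between probes, with up to 3 genes per related list. Members and lists were chosen with earlier results of these data known.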

Additional observations from a re-analysis of the deposited data

How the results depend on the processing

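The 15 alternatives were no background subtraction, a normexp offset of 0, the scanner log ratio, median centring, array scale normalization, no dim filter, a stricter filter (both channels, all arrays), the mean over probes, array weights, separate channels with no replicate block, leaving out each replicate, replicates 2 and 3 as 1, and removal of a trend on base composition, the last chosen after the data were seen. A slide block was not run, since there was 1 slide. With separate channels and no replicate block, Dhx33 had the lowest adjusted limma p of the helicases, 0.0587, and no helicase passed with or without the pairing. Under all alternatives but median centring, 0 genes passed adjustment. Median centring gave 1047 genes past adjustment, 5 helicases past it, 21 helicases below and 0 above 0 on every array, and medians of −0.51 (Ddx) and −0.88 (Dhx); Ddx3x (−0.26), Ddx4 (−0.36), Ddx5 (−1.03), Ddx20 (−0.63) and Ddx39 (−0.17) changed sign. With no dim filter, 11 of 50 helicases were below 0 on every array, against 17.6% of all genes. Leaving out each replicate gave 8 to 15 helicases below and 3 to 10 above 0 on every array kept. The shares of all genes were then 30.6 to 36.8% below and 29.4 to 36.8% above. The highest counts came without replicate 1, and fewer arrays must then share a sign. Without the base composition trend 4 were above, against 27.1% of all genes. Ratios near 0 also changed sign: Ddx39 to −0.015 with no background subtraction, −0.030 with an offset of 0, and −0.053 with replicates 2 and 3 as 1; Ddx5 to −0.016 by the scanner log ratio and −0.20 by the mean over probes; Dhx15 to 0.012 by the scanner log ratio; Dhx36 to 0.12 by the mean over probes; and Ddx20 to −0.021 with replicates 2 and 3 as 1. Leaving out each replicate gave −0.085 to 0.11 for Ddx39, −0.0064 to 0.081 for Ddx5 and −0.057 to 0.32 for Ddx20. The cause was not tested. Signal over background limits Ddx18, Ddx48, Ddx51, Ddx55, Ddx56, Dhx29 and the 21 genes not tested. Ddx39 was well above background in every pool but dim.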
